A study of Mus musculus with 20 samples.

Results

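Water leaves the kidney tubule through aquaporins, membrane channels that each let water, and in some family members glycerol, cross the cell along its gradient. In the collecting duct the hormone vasopressin binds the V2 receptor, which raises cyclic AMP, activates protein kinase A, moves aquaporin-2 from vesicles into the apical membrane and over a longer time raises transcription of its gene. The water that enters principal cells by this route leaves them through aquaporin-3 and aquaporin-4 on the opposite side, while aquaporin-1 carries constitutive water flow in the proximal tubule and the descending thin limb.

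The transcripts described here are those of 8 genes, the 7 aquaporins Aqp1, Aqp2, Aqp3, Aqp4, Aqp6, Aqp7 and Aqp11 and the V2 receptor gene Avpr2. They were chosen by gene symbol, on family membership, from the 55822 genes of the deposited table, and all 8 were among the 16266 genes that passed the filter on low counts. The tissue was whole kidney of male C57BL/6J mice aged 8 weeks, which received 6 daily administrations and were examined on day 7 after 1 day without treatment. Of 20 samples in 4 groups, this account uses the 5 control mice given phosphate-buffered saline and the 5 mice given puberulic acid at 1 mg per day, a tropolone made by moulds. The labels name oral dosing in one place and gavage or intraperitoneal injection in another, so the route for each animal is not known here. The other groups received a normal or a toxic lot of the supplement Choleste-Help at 1000 mg per day. They are not analysed here, because the names of their 10 table columns do not show the lot.

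Levels are CPM, counts scaled to a common library size, with composition corrected by the trimmed mean of M-values (TMM). Fold changes and their standard errors come from the edgeR quasi-likelihood fit, p-values were adjusted by Benjamini-Hochberg over all genes tested, and a gene was called at an adjusted p under 0.05. Totals ran from 18409877 to 22725274 estimated counts in control libraries and from 19897287 to 24705587 in puberulic acid libraries. Expression differed widely between the groups: 65.3% of the genes tested were called, 34.2% higher and 31.1% lower with puberulic acid. Scaling to total counts in place of TMM moved the median log2 fold change of all genes tested from 0.05 to 0.56, with 56.4% of genes then called higher and 15.5% lower. Defining markers of the kidney tubule were present in every library, and all 10 proximal tubule markers fell, with a median log2 fold change of -3.11. Among treated animals, 2 libraries stood apart. Puberulic acid replicate 1 had a summed proximal tubule marker level of 1494 CPM against 499 to 656 CPM in the other 4, and puberulic acid replicate 3 held adipocyte transcripts. Where leaving out either changed the call of 1 of the 8 genes or the count of a list, the value without it is given.

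Transcripts of 7 of the 8 genes fell with puberulic acid and none rose. Aqp11 fell most, to 7.17% of control, and Aqp3, Aqp1, Aqp4, Aqp2 and Avpr2 fell to between 26.8% and 39.0% of control. Aqp7 fell to 77.1% of control under TMM scaling, but its log2 fold change was 0.13 with total counts. Aqp6 did not pass the test. The median log2 fold change of the 8 genes was -1.46, against 0.05 for all genes tested, and the share called lower among all genes was 31.1%. For 6 of the 8 genes, every puberulic acid animal lay below every control, so that their ranges did not overlap. Among all genes tested, 50.1% did not overlap and 24.0% did so with puberulic acid below control. With total counts 6 of the 8 were called lower, where 15.5% of all genes were. Without puberulic acid replicate 1 all 8 were called lower. In bulk tissue, fewer cells of a type and less RNA per cell cannot be told apart.

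**Figure D1:**
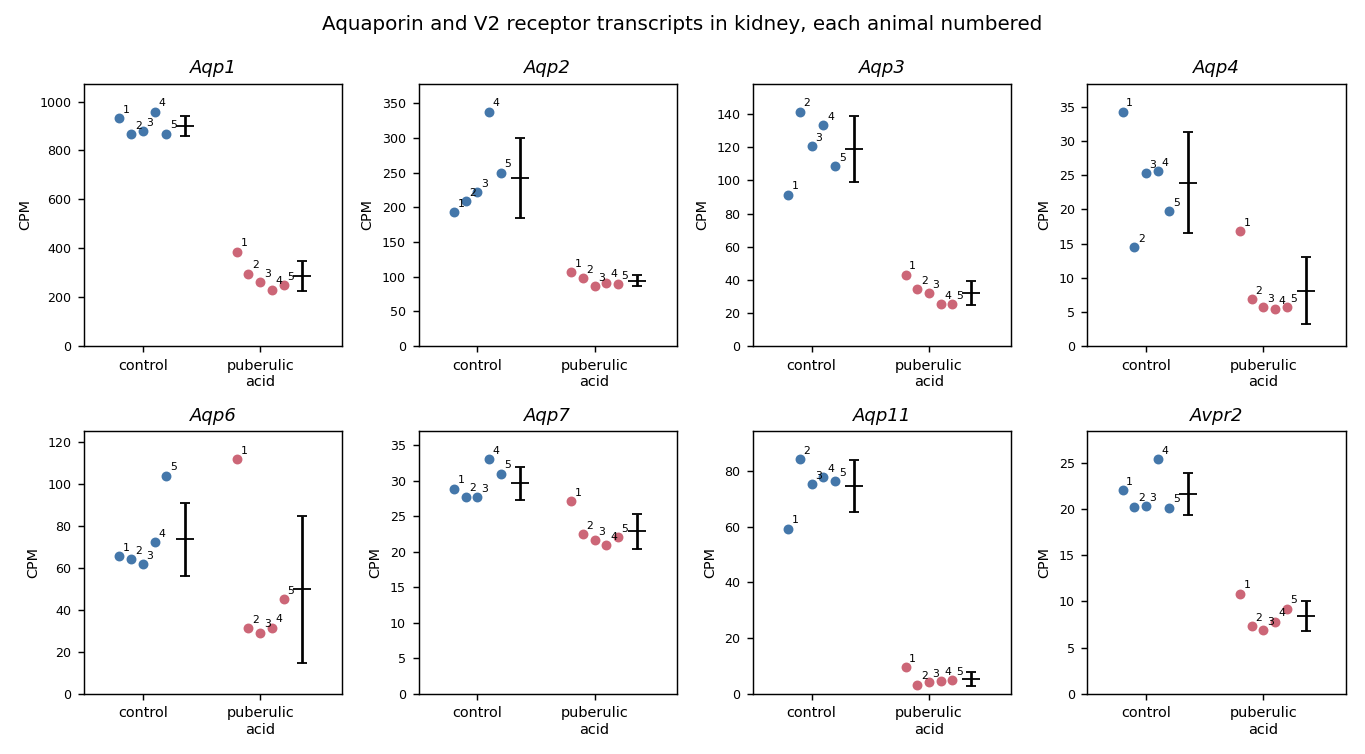
CPM of each of the 8 genes (vertical axis, linear from 0) in the 5 control and 5 puberulic acid kidneys; each point is an animal labelled with its replicate number, and the black mark with bars is the mean ± SD. Puberulic acid animals lie below all controls except in Aqp4 and Aqp6, where puberulic acid replicate 1 lies inside or above the control range.

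**Figure D2:**
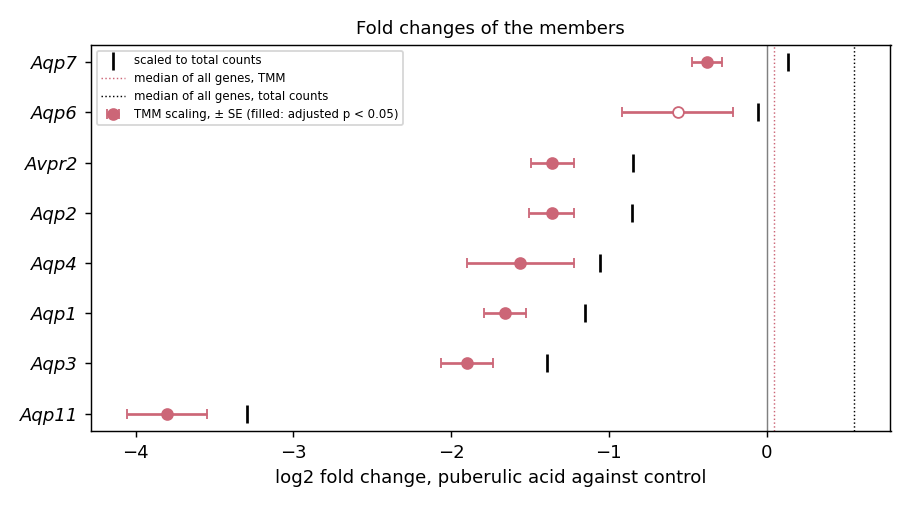
Log2 fold change (horizontal axis) of each gene, with TMM scaling as points with SE bars and with total counts as black ticks; dotted lines are the medians of all genes tested under each scaling. Aqp11 stands lowest at -3.80, and Aqp7 is the gene whose sign differs between the scalings.

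Aqp2 encodes the vasopressin-regulated apical water channel of principal cells. It measured 193, 209, 222, 338 and 249.9 CPM in control replicates 1 to 5 and 106.6, 97.9, 86.4, 91.4 and 88.8 CPM in puberulic acid replicates 1 to 5. Every puberulic acid animal lay below every control, and the treated animals lay closer together than the controls. The group means were 242 ± 57.3 and 94.2 ± 8.17 CPM (SD, n = 5 per group), or -1.36 ± 0.14 as log2 fold change (SE, adjusted p = 6.01e-06).

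Avpr2 encodes the vasopressin V2 receptor, which acts upstream of Aqp2 in the same cells. Its level was 22.0, 20.2, 20.3, 25.4 and 20.1 CPM in control replicates 1 to 5 and 10.8, 7.33, 6.90, 7.82 and 9.22 CPM in puberulic acid replicates 1 to 5. The groups did not overlap. The fold change was close to that of Aqp2, at -1.36 ± 0.14 on the log2 scale (SE, adjusted p = 4.76e-06), from counts of 163 to 407 per library. On the opposite strand Avpr2 overlaps L1cam and Arhgap4, and whether the counting used strand is not stated. L1cam had a smaller decrease (log2 fold change -0.47 ± 0.12, SE, adjusted p = 0.00429) and Arhgap4 was not called (0.31 ± 0.27, SE, adjusted p = 0.319).

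Aqp3 and Aqp4 encode the basolateral exits for water from principal cells, and Aqp3 also carries glycerol. Aqp3 ran at 91.5, 141, 121, 133 and 109 CPM in control replicates 1 to 5 and at 43.0, 34.2, 31.9, 25.2 and 25.4 CPM in puberulic acid replicates 1 to 5. Its groups were widely apart, and the log2 fold change was -1.90 ± 0.17 (SE, adjusted p = 1.36e-06). Aqp4 ran at 34.3, 14.5, 25.3, 25.6 and 19.7 CPM in the controls and at 16.8, 6.86, 5.68, 5.38 and 5.69 CPM with puberulic acid. Here the groups overlapped, because puberulic acid replicate 1 was above control replicate 2. The log2 fold change of Aqp4 was -1.56 ± 0.34 (SE, adjusted p = 0.00157), and -2.04 without puberulic acid replicate 1. A gene antisense to Aqp4 was at most 0.254 CPM in any library.

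The promoters of 4 of these genes are shown because Aqp2, Avpr2 and Aqp3 fell together in the collecting duct set and Aqp11 fell most. Each run holds the 250 bases before the transcription start, 5′ to 3′ on the strand of the gene, from RefSeq on GRCm38.p6. The set of promoter sequences used held 7 of the 8 genes. Capitals mark matches on either strand to TGACG, a half-site of the cyclic AMP response element to which CREB binds, and to GATA, the core of sites for GATA2 and GATA3; CGTCA and TATC are these motifs on the opposite strand. TGANTCA, a site for AP-1 factors, and TGGAAA, the core bound by the tonicity factor NFAT5, were searched too, and none of the matches overlapped another.
Aqp2, chr15:99578806-99579055, plus strand: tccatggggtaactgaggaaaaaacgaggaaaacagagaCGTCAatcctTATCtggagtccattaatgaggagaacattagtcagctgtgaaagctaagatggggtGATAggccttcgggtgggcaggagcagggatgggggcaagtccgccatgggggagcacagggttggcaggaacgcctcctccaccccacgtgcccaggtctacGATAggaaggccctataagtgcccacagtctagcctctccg
Avpr2, chrX:73891852-73892101, plus strand: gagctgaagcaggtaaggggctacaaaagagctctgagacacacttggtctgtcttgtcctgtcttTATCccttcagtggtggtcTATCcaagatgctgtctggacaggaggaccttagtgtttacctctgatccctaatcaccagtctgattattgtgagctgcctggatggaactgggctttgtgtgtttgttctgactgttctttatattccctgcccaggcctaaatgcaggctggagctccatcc
Aqp3, chr4:41098184-41098433, minus strand: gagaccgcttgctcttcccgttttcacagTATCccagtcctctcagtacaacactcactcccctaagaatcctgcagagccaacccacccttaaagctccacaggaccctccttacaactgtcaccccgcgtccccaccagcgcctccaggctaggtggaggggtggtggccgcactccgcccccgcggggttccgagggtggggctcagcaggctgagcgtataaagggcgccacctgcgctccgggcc
Aqp11, chr7:97738248-97738497, minus strand: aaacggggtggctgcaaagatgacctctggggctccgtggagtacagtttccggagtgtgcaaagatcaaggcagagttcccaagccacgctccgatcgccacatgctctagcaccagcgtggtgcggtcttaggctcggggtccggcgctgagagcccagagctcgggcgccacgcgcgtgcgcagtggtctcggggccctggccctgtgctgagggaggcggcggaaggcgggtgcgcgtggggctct

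The Aqp2 window held the TGACG half-site, beginning 211 bases before the start, and 3 GATA matches, beginning 201, 144 and 41 bases before it. No other of the 7 genes had TGACG in its window, and 17.8% of all 32851 promoter windows of this length had it. Avpr2 had 2 GATA matches, and Aqp3 and 1 of the Aqp7 windows had 1 each. With Aqp2, 4 of the 7 genes had GATA, where 53.6% of all windows had at least 1. The Aqp11 window held none of the 4 motifs. TGANTCA was in none of the windows of the 7 genes and in 6.75% of all windows, and TGGAAA was in 1 of the Aqp7 windows and in 18.6% of all windows. These are matches of letters, and the data do not measure binding.

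Markers of principal cells changed less than the water channels of these cells. Of 10 principal cell and collecting duct markers outside the 8 genes, 4 fell, 1 rose and 5 were not called, with a median log2 fold change of -0.33, where 31.1% of all genes fell and 34.2% rose. Hsd11b2, the enzyme that shields the mineralocorticoid receptor from glucocorticoids, fell by 0.98 ± 0.10 on the log2 scale (SE, adjusted p = 5.19e-06). Scnn1g and Scnn1b, subunits of the epithelial sodium channel, had log2 fold changes of -0.71 and -0.37. Hoxb7, a homeobox gene of the ureteric bud lineage, measured 16.3 to 21.1 CPM in controls and 19.2 to 20.7 CPM with puberulic acid. Npnt, a matrix protein gene, was the marker that rose (log2 fold change 0.71 ± 0.11, SE, adjusted p = 0.000154). The number lower was 5 without puberulic acid replicate 1. With total counts 1 marker was called lower and 2 higher, with a median of 0.17, where 15.5% and 56.4% of all genes were. Scnn1g, Scnn1b and Gata3 were then not called and Hoxb7 was higher (0.58, adjusted p = 0.000232).

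Each member was then compared, inside each animal, with the mean of the markers of its segment, as log2(CPM + 0.5), and the group difference was tested by exact two-sided permutation, adjusted over the 8 genes. The smallest unadjusted p that 5 animals against 5 allow is 0.00794. Relative to the principal cell markers, Aqp3 changed by -1.59, Aqp2 by -1.03 and Avpr2 by -1.01, each with an exact permutation adjusted p of 0.0127 and with all 5 puberulic acid animals below all controls. Aqp4 changed by -1.28 (exact permutation, adjusted p = 0.0212), and its groups overlapped. The markers themselves changed by -0.31 on average. Whole-kidney RNA does not show which cells held a transcript, and the part of other cells in the Avpr2 and Aqp4 values was not tested.

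**Figure D3:**
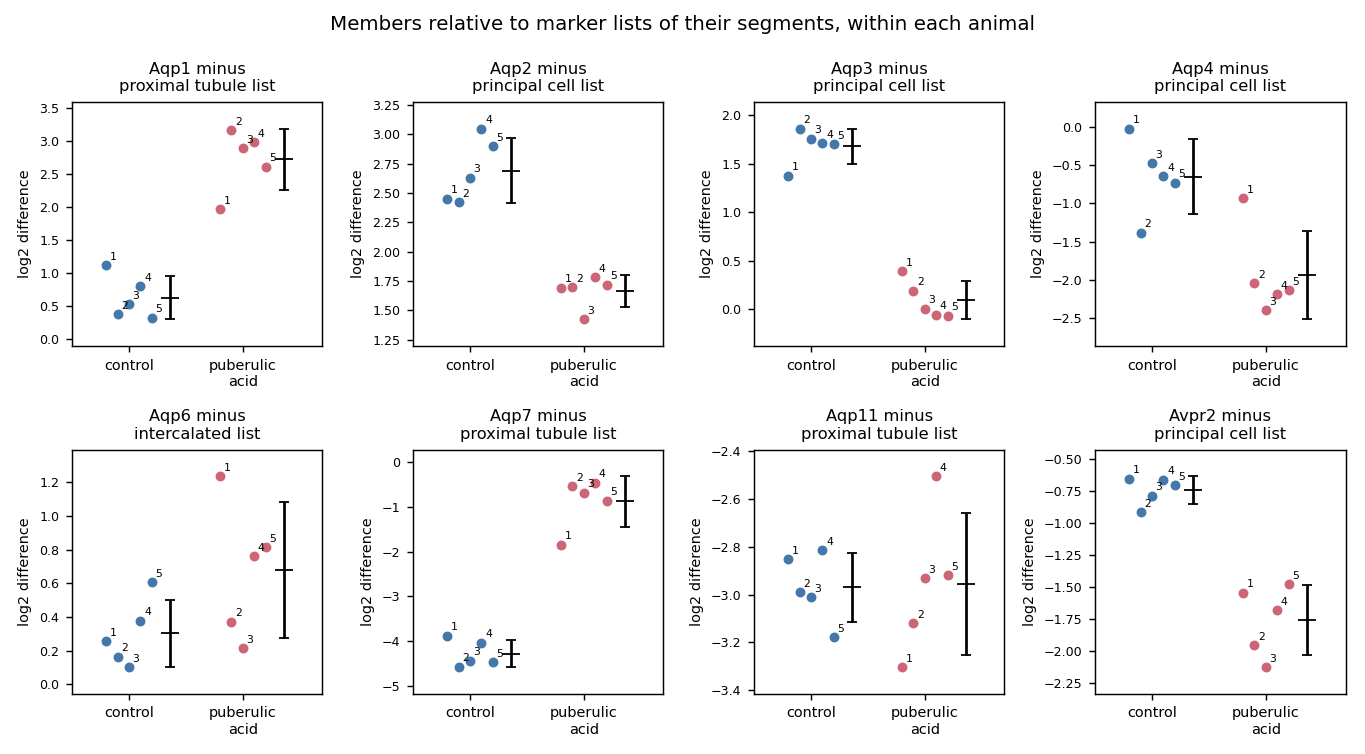
Log2 level of each gene minus the mean log2 level of the marker list named above each panel (vertical axis) in each numbered animal; black marks are means ± SD. The collecting duct genes Aqp2, Aqp3 and Avpr2 separate downward, Aqp1 and Aqp7 separate upward, and the Aqp11 groups overlap.

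Aqp1 encodes the constitutive channel of the proximal tubule and the descending thin limb, and it is also present in vasa recta endothelium and red blood cells. It was the most abundant of the 8, at 932, 867, 878, 958 and 869 CPM in control replicates 1 to 5 and 386, 297, 262, 231 and 249 CPM in puberulic acid replicates 1 to 5. The controls spanned a narrow range and all puberulic acid animals were far below it. The log2 fold change was -1.66 ± 0.13 (SE, adjusted p = 6.83e-07). The proximal tubule markers changed by -3.77 on average, and Aqp1 rose by 2.09 relative to them (exact permutation, adjusted p = 0.0127).

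Red blood cells and endothelium are other known sources of Aqp1. Of 6 red blood cell genes, 5 fell and none rose, where 31.1% of all genes fell and 34.2% rose. Their summed level was 1037 to 3303 CPM in controls and 36.4 to 336 CPM with puberulic acid. None of the 6 was at 0 in all libraries, and Slc4a1, the 1 that was not called, is shared with intercalated cells and was lower without puberulic acid replicate 1, so that all 6 then fell. Of 7 endothelial markers 2 fell and none rose, with sums of 294 to 452 CPM in controls and 169 to 386 CPM with puberulic acid, ranges that overlap. That count is near the 31.1% of all genes called lower, and with total counts no endothelial marker was called and the median moved from -0.35 to 0.16. The part of blood or vessel content in the Aqp1 result was not tested.

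Aqp11 encodes an intracellular aquaporin of the proximal tubule endoplasmic reticulum, whose loss in mice leads to cystic kidneys. Its level was 59.3, 84.0, 75.2, 77.8 and 76.3 CPM in control replicates 1 to 5 and 9.54, 3.32, 4.15, 4.69 and 4.92 CPM in puberulic acid replicates 1 to 5. The highest puberulic acid animal, replicate 1, was still far under the lowest control. Aqp11 fell by 3.80 ± 0.25 on the log2 scale (SE, adjusted p = 1.71e-07), and 0.43% of all genes tested fell as far or further. Relative to the proximal tubule markers the difference was 0.01 (exact permutation, adjusted p = 0.944), so no departure from that list was detected. With a pseudocount of 5 in place of 0.5, which weighs low levels less, the difference was 0.58 (exact permutation, adjusted p = 0.0272).

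Aqp7 encodes a channel for water and glycerol at the brush border of the late proximal tubule, and it is also the glycerol channel of adipocytes. Its level was 28.9, 27.7, 27.6, 33.0 and 31.0 CPM in control replicates 1 to 5 and 27.1, 22.4, 21.6, 20.9 and 22.0 CPM in puberulic acid replicates 1 to 5. The groups were adjacent without overlap. The log2 fold change was -0.38 ± 0.10 (SE, adjusted p = 0.0042), and with total counts it was 0.13 (adjusted p = 0.233). Relative to the proximal tubule markers Aqp7 rose by 3.40 (exact permutation, adjusted p = 0.0127), the largest departure of the 8 genes.

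Adipocyte genes stood apart in 1 library. The summed level of 6 adipocyte markers was 211 CPM in puberulic acid replicate 3, 3.53 to 6.89 CPM in the other puberulic acid libraries and 0.374 to 0.791 CPM in controls. Adipoq and Lep were at 0 in all controls, and Cidec, the 1 of the 6 that passed the filter, rose. Cidec held at most 10 counts in a control and at least 65 in each puberulic acid library. It thus passed the filter through the treated libraries, and its call is no measure of size. Without puberulic acid replicate 3 the Aqp7 log2 fold change was -0.37 (adjusted p = 0.0115), so the decrease was close in size without that library.

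Of 6 other genes of glycerol handling 4 fell and none rose, with a median log2 fold change of -1.52, where 31.1% of all genes fell. Pck1, the cytosolic gate of gluconeogenesis and glyceroneogenesis, fell by 4.27 ± 0.20 and Gk, glycerol kinase, by 2.67 ± 0.16 on the log2 scale (SE, adjusted p = 1.39e-08 and 8.63e-08). Gpd2, the mitochondrial glycerol phosphate dehydrogenase, was not called (0.15, adjusted p = 0.196). Lipe, a lipase of adipocytes, was not called over all libraries (-0.23, adjusted p = 0.505) but was lower without puberulic acid replicate 3 (-0.65, adjusted p = 0.00769), which makes 5 lower. With total counts 3 genes of this list were called lower and 1, Gpd2, higher (0.66), where 15.5% and 56.4% of all genes were. Gpd2 was also higher with upper-quartile factors (0.25, adjusted p = 0.0419).

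Aqp6 encodes an intracellular channel of acid-secreting intercalated cells that conducts anions. Its level was 65.8, 64.2, 61.9, 72.3 and 104 CPM in control replicates 1 to 5 and 112, 31.3, 29.1, 31.5 and 45.2 CPM in puberulic acid replicates 1 to 5. The animal with the highest value of all 10 was thus a treated one, puberulic acid replicate 1, while the other 4 treated animals lay below all controls. The log2 fold change was -0.56 ± 0.35 (SE, adjusted p = 0.178), and without that animal it was -1.13 (adjusted p = 0.000186). With total counts it was -0.057 (adjusted p = 0.891). The same animal was the highest treated one for 6 of 7 intercalated cell markers, by a wide margin for Slc4a1 and a small one for Foxi1, while for Slc4a9 it lay among the others. Slc4a1, the basolateral chloride-bicarbonate exchanger that red blood cells share, was at 70.97 CPM in it, 2.57 to 8.97 CPM in the other treated animals and 36.7 to 64.9 CPM in controls.

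Of 7 intercalated cell markers 5 fell and none rose, where 31.1% of all genes fell and 34.2% rose. Their median log2 fold change was -1.18, and all 7 fell without puberulic acid replicate 1. With total counts 3 were called lower and 1 higher, where 15.5% and 56.4% of all genes were. Slc26a4, the pendrin exchanger of bicarbonate-secreting cells, went from 77.8 ± 6.45 to 30.5 ± 8.98 CPM (SD, n = 5 per group), which is -1.35 ± 0.17 on the log2 scale (SE, adjusted p = 2.79e-05). Relative to these markers the Aqp6 difference was 0.38 and did not pass the test (exact permutation, adjusted p = 0.109).

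Because a ratio of 2 genes in one library depends little on how libraries are scaled, all 28 pairs of the 8 genes were compared by the exact two-sided permutation test, adjusted over the 28. The ratio changed in 18 pairs. All 7 pairs with Aqp11 changed, with Aqp11 the lower: the log2 ratio to Aqp11 rose by 1.87 for Aqp3, by 3.39 for Aqp7 and by values between these for Aqp1, Aqp2, Aqp4, Aqp6 and Avpr2 (exact permutation, adjusted p = 0.0202 in each). With a pseudocount of 5 the same ratios rose by 1.21 for Aqp3, 1.30 for Aqp1 and 2.65 for Aqp7 and still passed (exact permutation, adjusted p = 0.0171). Relative to Aqp7, the log2 level of Aqp3 fell by 1.52, that of Aqp1 fell by 1.31 and that of Aqp2 fell by 0.96 (exact permutation, adjusted p = 0.0202 in each). The log2 ratio of Aqp7 to Avpr2 rose by 0.95 (exact permutation, adjusted p = 0.0202). Those 11 pairs also passed in each of the 10 comparisons that left out 1 animal. The remaining 7 did not pass in some of them, and 11 pairs passed without control replicate 3, without puberulic acid replicate 4 or without puberulic acid replicate 5.

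Among the collecting duct genes the ratio of Aqp2 to Avpr2 was 3.43 ± 0.24 in controls and 3.42 ± 0.20 with puberulic acid (log2, SD, n = 5 per group), and these differed by -0.01 (exact permutation, adjusted p = 0.921), or by -0.30 with a pseudocount of 5 (exact permutation, adjusted p = 0.0702). The log2 ratio of Aqp2 to Aqp3 rose by 0.56 (exact permutation, adjusted p = 0.0317), and that of Aqp3 to Avpr2 fell by 0.57 (exact permutation, adjusted p = 0.0392). These last 2 were among the pairs that did not pass when some single animals were left out.

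**Figure D4:**
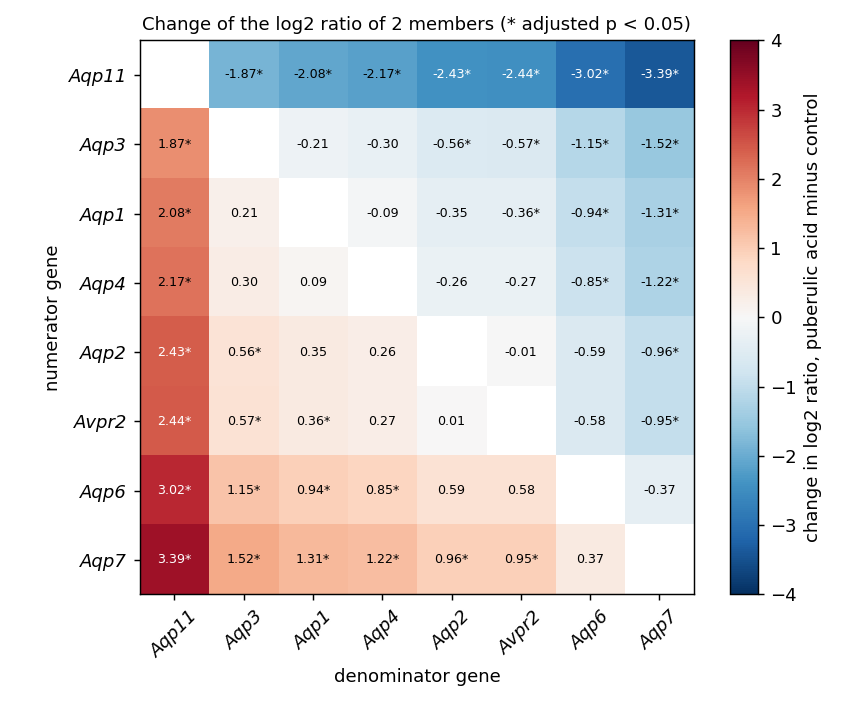
Change in the log2 ratio of the row gene to the column gene, puberulic acid minus control (colour and printed value); stars mark pairs with an adjusted p under 0.05 in the exact permutation test. The Aqp11 row is negative throughout and its column positive, from 1.87 to 3.39, and the Aqp2 to Avpr2 cell is at -0.01.

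The order of abundance shifted accordingly. Per kilobase of transcript, control levels were 343 ± 15.9 CPM for Aqp1, 171 ± 40.4 for Aqp2, 67.5 ± 11.2 for Aqp3 and 35.8 ± 8.49 for Aqp6 (SD, n = 5). Aqp11 followed at 19.9 ± 2.46 CPM per kilobase, Avpr2 at 11.9 ± 1.23, Aqp7 at 11.7 ± 0.909 and Aqp4 at 4.73 ± 1.46 (SD, n = 5). Among neighbours in this order the ranges overlapped between Avpr2 and Aqp7 alone. With puberulic acid Aqp1 and Aqp2 remained first and second, at 108 ± 23.4 and 66.4 ± 5.76 CPM per kilobase (SD, n = 5). Aqp6 and Aqp3 came next with overlapping ranges, then Aqp7 at 9.04 ± 0.975 and Avpr2 at 4.65 ± 0.887 CPM per kilobase (SD, n = 5). Aqp4 at 1.60 ± 0.972 and Aqp11 at 1.42 ± 0.652 CPM per kilobase (SD, n = 5) were last and overlapped. Aqp11 thus moved from the fifth to the last place.

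Outside the 8 genes the aquaporin family held 5 more, of which 1 passed the filter. Aqp8, a channel for water and ammonia that is scarce in kidney, rose from at most 0.623 CPM in controls (10 counts) to between 3.69 and 7.10 CPM, or by 4.41 ± 0.59 on the log2 scale (SE, adjusted p = 4.02e-05). Its controls included libraries with 0 counts, so that the fitted fold change has little behind it on the control side. Aqp5 and Aqp9 did not pass the filter for the edgeR fit, with at most 0.127 and 0.0636 CPM in controls and 0.381 to 0.693 and 0.254 to 0.693 CPM with puberulic acid. DESeq2 called Aqp5, Aqp8 and Aqp9 higher, and without puberulic acid replicate 3 Aqp9 passed the filter and was called higher in edgeR (3.91, adjusted p = 7.19e-05). For Aqp5 and Aqp9 no control library held more than 2 counts, so the fitted fold is no measure of size. Mip and Aqp12 had no counts in any library.

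Of 13 genes of the cyclic AMP pathway below the V2 receptor, 6 rose, 4 fell and 3 were not called, with a median log2 fold change of 0.26. These shares are near those of all genes tested, 34.2% higher and 31.1% lower. The number higher was 7 without puberulic acid replicate 1. The call of Prkacb (0.21, adjusted p = 0.0203) was lost without control replicate 3 or 5 and without puberulic acid replicate 2, 4 or 5. It was also lost with no filter (adjusted p = 0.083). Gnas, the stimulatory G protein subunit that couples the receptor to adenylyl cyclase, fell by 0.65 ± 0.11 on the log2 scale (SE, adjusted p = 0.000359). Akap7, an anchoring protein for protein kinase A, fell by 1.05 ± 0.21 (SE, adjusted p = 0.000764). Adcy3, an adenylyl cyclase, rose by 1.35 ± 0.22 and Creb1, the transcription factor that protein kinase A phosphorylates, by 0.95 ± 0.11 (log2, SE, adjusted p = 0.00022 and 1.39e-05). Prkar2b, a regulatory subunit of protein kinase A, was not called (1.41, adjusted p = 0.055). It was at 23.7 CPM in puberulic acid replicate 3, the library high in adipocyte genes, and its log2 fold change without that library was 0.42 (adjusted p = 0.331). Without control replicate 1, puberulic acid replicate 1 or puberulic acid replicate 5 it was called higher (1.62, 1.65 and 1.55, with adjusted p from 0.0132 to just under 0.05), as it was over all libraries in DESeq2 (1.40, adjusted p = 0.0226), without a filter, with upper-quartile factors and with total counts (1.92, adjusted p = 0.0123). Pde4d, a phosphodiesterase that breaks down cyclic AMP, was at 0.01 (adjusted p = 0.983). With total counts 8 genes of this list were called higher and 1 lower, where 56.4% and 15.5% of all genes were. The Gnas value of -0.14 then did not pass (adjusted p = 0.304).

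Of 12 genes for vesicle traffic and turnover of aquaporin-2, 3 rose, 6 fell and 3 were not called, where 34.2% of all genes rose and 31.1% fell. With upper-quartile factors the calls of Stx4a, Hspa8 and Rab11fip2 were lost (adjusted p = 0.176, 0.0533 and 0.0531), which leaves 3 lower. Lrba, an anchoring protein needed for aquaporin-2 phosphorylation, fell by 0.87 ± 0.09 on the log2 scale (SE, adjusted p = 3.95e-06) and Stub1, a ubiquitin ligase, by 0.50 ± 0.10 (SE, adjusted p = 0.000924). Rab11a, a GTPase of recycling endosomes, rose by 0.48 ± 0.09 and Vta1, a factor of multivesicular bodies, by 0.41 ± 0.09 (log2, SE, adjusted p = 0.000589 and 0.00205). The number lower was 5 without puberulic acid replicate 3, where Rab11fip2 was not called (adjusted p = 0.0509). Rab11fip2 also lost its call without control replicate 4. Stx4a lost its call without control replicate 1, 2, 3 or 4 or puberulic acid replicate 1, 2 or 5 (adjusted p up to 0.0768). It also did so with no filter and with the replicate block. Rhoa and Stx3 were not called (0.11 and 0.16, adjusted p = 0.198 and 0.132), but both were called higher with upper-quartile factors (0.21 and 0.25, adjusted p = 0.0223 and 0.0158) and with total counts (0.62 and 0.66). With total counts 5 genes were called higher and 1 lower, where 56.4% and 15.5% of all genes were. Stub1 was then not called (adjusted p = 0.976) and the median log2 fold change moved from -0.26 to 0.25.

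Of 11 transcription factors of the collecting duct 2 rose, 5 fell and 4 were not called, where 34.2% of all genes were called higher and 31.1% lower. Without puberulic acid replicate 1 the number lower was 6, with Tfcp2l1 at -0.45 (adjusted p = 0.00309) added. Nr1h4, the bile acid receptor FXR, which raises Aqp2 transcription, fell by 1.93 ± 0.18 on the log2 scale (SE, adjusted p = 2.56e-06). Which kidney cells held Nr1h4, and any link to the Aqp2 decrease, was not tested. Elf3, an epithelial ETS factor, rose by 1.55 ± 0.16 and Nfat5, the tonicity factor, by 0.91 ± 0.12 (log2, SE, adjusted p = 5.76e-06 and 3.07e-05). Elf5, an ETS factor of principal cells, and Ehf were not called (-0.14 and 0.15, adjusted p = 0.715 and 0.344). Gata3 was at 17.5 CPM in puberulic acid replicate 3 against 6.77 to 8.76 CPM in the other treated animals, and its log2 fold change was -0.84 with that library and -1.16 without it. With total counts 4 were called higher, Ehf among them (0.66), and 2 lower, where 56.4% and 15.5% of all genes were.

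Receptors of other hormones that act on collecting duct water transport included 9 tested genes, of which 3 rose, 1 fell and 5 were not called; the share that rose is near the 34.2% of all genes. With total counts 5 were called higher and 1 lower, where 56.4% and 15.5% of all genes were. Bdkrb2, the bradykinin B2 receptor, was at 1.27 ± 0.158 CPM in controls and at 10.6 ± 3.00 CPM with puberulic acid (SD, n = 5 per group), a rise of 3.04 ± 0.23 on the log2 scale (SE, adjusted p = 3.81e-07). Oxtr, the oxytocin receptor, rose by 1.62 ± 0.38 on the log2 scale from at most 0.779 CPM (SE, adjusted p = 0.00274). Its controls held 2 to 12 counts each and the puberulic acid libraries at least 29, so it passed the filter through the treated libraries. The fitted fold change thus has little behind it on the control side. Ptger1, a prostaglandin E2 receptor of the collecting duct, fell by 1.40 ± 0.22 (log2, SE, adjusted p = 0.000121). The vascular vasopressin receptor Avpr1a was not called (0.46 ± 0.20, SE, adjusted p = 0.0594) but was higher without puberulic acid replicate 2 or 4 (0.52 and 0.51, adjusted p = 0.0394 and 0.0395), with upper-quartile factors (0.55, adjusted p = 0.0243) and with total counts (0.97, adjusted p = 0.000997). Avpr1b had no counts in any library. Without puberulic acid replicate 1 the number lower was 4, with Ptger3 at -1.45 (adjusted p = 0.000119), Casr at -0.95 (adjusted p = 0.00282) and Ednrb at -0.60 (adjusted p = 0.0314) added.

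Salt and urea transport builds the medullary gradient that draws water through these channels, and organic osmolytes protect cells within it. Of 12 genes for both, Umod included, 7 fell, 2 rose and 3 were not called, where 31.1% of all genes fell and 34.2% rose. The 4 osmolyte genes, Akr1b3, Slc6a12, Slc6a6 and Slc5a3, split into 2 higher, 1 lower (Slc6a6, a taurine transporter, -0.39, adjusted p = 0.00158) and 1 not called. Without puberulic acid replicate 1 the number higher was 1, and without puberulic acid replicate 3 it was 1 with 6 lower. Bsnd, the barttin subunit of kidney chloride channels, fell by 1.35 ± 0.25 on the log2 scale (SE, adjusted p = 0.000521). Slc12a1, the sodium-potassium-chloride cotransporter of the thick limb, had a log2 change of -1.20 ± 0.45 (SE, adjusted p = 0.0333). It was at 779 CPM in puberulic acid replicate 1, inside the control range of 429 to 954 CPM, and at 140 to 324 CPM in the other treated animals. Without puberulic acid replicate 1 it was -1.89 (adjusted p = 0.000112). Its call also held without control replicate 2 or control replicate 5 and was lost without any of the other 7 animals (adjusted p up to 0.0724) and in DESeq2. Akr1b3, the aldose reductase that makes sorbitol, rose by 1.93 ± 0.14 (log2, SE, adjusted p = 3.19e-07). Slc6a12, the betaine transporter, rose by 0.82 ± 0.31 (log2, SE, adjusted p = 0.0369), a call that held without control replicate 1, control replicate 3 or puberulic acid replicate 4 and was lost without any of the other 7 (adjusted p up to 0.107) and with no filter on low counts (adjusted p = 0.0754). Umod and Slc5a3 were not called (0.06 and 0.04, adjusted p = 0.782 and 0.837). With total counts 1 gene of this list was called lower and 4 higher, where 15.5% and 56.4% of all genes were; Umod and Slc5a3 were then higher (0.57 and 0.55) and Slc12a1 was not called (-0.69).

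**Figure D5:**
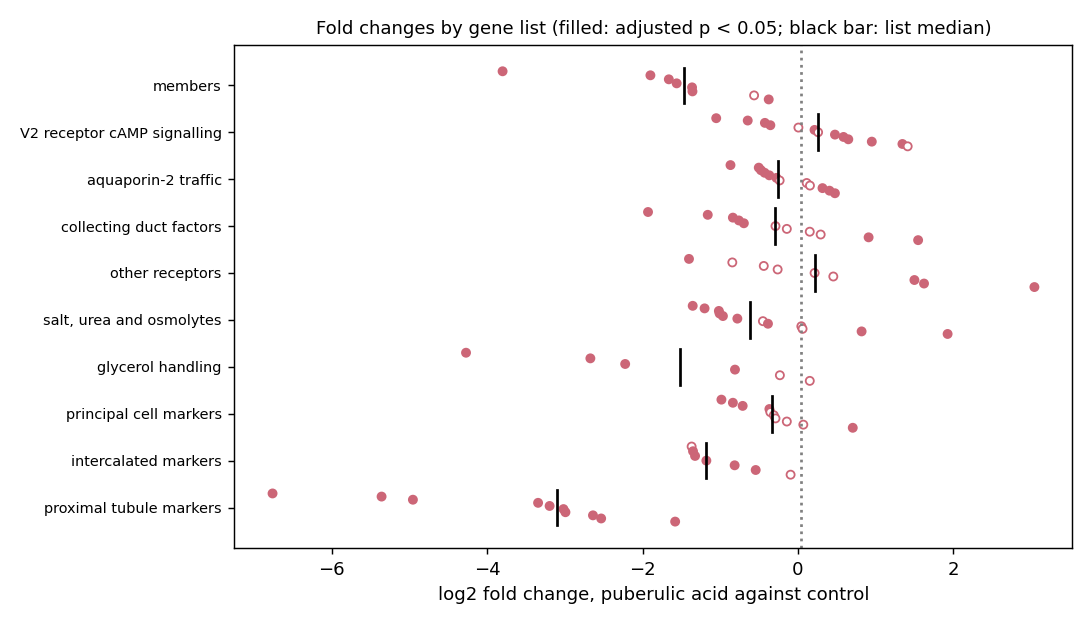
Log2 fold change (horizontal axis) of each tested gene in the member set and in 9 gene lists; filled points passed the test, black bars are list medians, and the dotted line is the median of all genes tested. The proximal tubule list lies lowest, with a median of -3.11, and the principal cell list at -0.33 lies above the members at -1.46.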

How the data were processed

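Whole-kidney poly(A) RNA was sequenced from directional libraries, per the labels' protocols. The authors deposited estimated counts per gene. The submitters' processing notes name fastp 0.22.0, FastQC 0.12.1, MultiQC 1.28, Salmon 1.10.3, DESeq2 and the build GRCm39, with no role given; the annotation is not given in the sources used here. Columns were matched to samples by name (the control columns by a dose of 0, the puberulic acid columns by its initials, with the replicate numbers of the titles), and 10 columns that could not be matched were not used. The counts were rounded and fitted for the 5 control and 5 puberulic acid samples alone, with filterByExpr, TMM factors and the quasi-likelihood test of edgeR 4.0.16 (limma 3.58.1, R 4.3.3); standard errors were taken from the fold change and its F statistic. The fit was tested on simulated data with known fold changes, in which few genes changed and as many rose as fell. That simulation does not cover data where most genes differ between groups, as they did here. Symbols were found for 51344 genes. Transcript lengths are those of principal transcripts in GENCODE M21 on GRCm38. Exact permutation tests used log2(CPM + 0.5) over 252 assignments, in scipy 1.17.1. A count of 3 corresponds to 0.0964 to 0.195 CPM, for counting error only, since no molecular identifiers are stated. Per the labels, mice were assigned to groups at random; that each library is 1 mouse is read from this, and p-values measure the spread between these samples. All 8 genes were named whatever their values; of each pathway list, the counts were given, with up to 2 called genes with the largest changes in each direction and up to 2 not called, and a few more that 1 library moved. The latter, and the genes named from the cell type marker lists, were chosen after their values were seen. 1 gene that this rule would name is not reported here. Genes and lists were chosen with earlier results of these data known. Alternatives were RLE, upper-quartile and total-count scaling, other filters, DESeq2 1.42.0, a robust fit, no mitochondrially encoded genes, another pseudocount, a list median, a block for the replicate number and the omission of single samples.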

Additional observations from a re-analysis of the deposited data

Results flagged for a closer look

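Within each group of 5, a sample was singled out where its gap to the nearest other exceeded 0.71 of the range of the group. Chance gives such a sample in about 5% of groups, or 1.7 of the 34 searched if values were independent, and 7 were found. Puberulic acid replicate 1 accounted for 5 of them. It was the highest treated animal for Aqp4 (16.8 CPM), for Aqp6 (112 CPM), for Aqp7 (27.1 CPM), for Aqp11 (9.54 CPM) and for Aqp4 relative to the principal cell markers (-0.94 on the log2 scale). Without this animal all 8 genes were called lower. Control replicate 5 was the highest control for Aqp6, at 104 CPM. Puberulic acid replicate 3, the library with the highest adipocyte marker sum, was the lowest treated animal for Aqp2 relative to the principal cell markers, at 1.42 on the log2 scale.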

How the results depend on the processing

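The decreases of Aqp1, Aqp2, Aqp3, Aqp4, Aqp11 and Avpr2 kept their direction and an adjusted p under 0.05 in each alternative. Scaling to total counts gave 9179 genes higher and 2526 lower, and a log2 fold change of 0.13 for Aqp7. Without single samples, 10104 to 11108 genes were called, 5103 to 5842 higher and 4881 to 5395 lower. Aqp6 ran from -1.13 to -0.42 without single samples. Same-numbered animals did not deviate together (mean correlation -0.036, from -0.172 to 0.039, with 0.0052 for other pairs). With the replicate block Aqp6 was at -0.77 (adjusted p = 0.0493), no other of the 8 genes changed its call, and 9960 to 12095 genes were called over the settings that kept all samples. A paired sign-flip test of 5 pairs cannot go below p = 0.0625, so with the replicate block 0 of the 28 gene pairs passed, and the values relative to segment markers, 2.09 for Aqp1, -1.03 for Aqp2, -1.59 for Aqp3, -1.28 for Aqp4, 3.40 for Aqp7 and -1.01 for Avpr2, did not pass (adjusted p = 0.0714, exact). Without single samples 11 to 18 gene pairs passed; 4 animals against 5 allow no p under 0.0159. Aqp11 relative to proximal tubule markers was -0.0046 with total counts, -0.023 with the list median and -0.099 to 0.10 without single samples, against 0.01, and with a pseudocount of 5 it was 0.58 and passed (exact, adjusted p = 0.0272). The ratio of Aqp2 to Aqp4 was -0.13 with a pseudocount of 5 against 0.26, that of Aqp1 to Aqp4 ran from -0.22 to 0.081 and that of Aqp2 to Avpr2 from -0.094 to 0.057 without single samples; none of these values passed. With a pseudocount of 5 the ratio of Aqp1 to Aqp4 was -0.50 and passed (exact, adjusted p = 0.037), and that of Aqp2 to Avpr2 was -0.30 and did not (exact, adjusted p = 0.0702). The causes were not tested.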

Other observations

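In the RefSeq annotation Aqp2, Aqp5 and Aqp6 lie next to each other on chromosome 15, and Aqp7 and Aqp3 on chromosome 4. The log2 fold change was -1.36 for Aqp2 and -0.56 for Aqp6, whose ratio did not pass the exact permutation test (adjusted p = 0.169). It was -1.90 for Aqp3 and -0.38 for Aqp7, whose ratio did (exact permutation, adjusted p = 0.0202).

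Genes most like 3 of the members were sought by Pearson's r of deviations of log2(CPM + 1) from the group means over the 10 samples, among 9526 genes whose mean reached 10 CPM. For Aqp1 they were Ptar1 (r = 0.966), Trak1 (0.962) and Stat5b (0.954). For Aqp2 they were Wbp1 (r = 0.974), Gatad2a (0.931) and Tuba4a (0.931). For Avpr2 they were Agk (r = 0.963), Gpc4 (0.943) and Ngef (0.943). Aqp2 and Avpr2 had an r of 0.531 with each other. All points share libraries and depth, and the highest of so many genes are high by selection.

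Markers of macrophages and of fibroblasts were higher. Among all genes 34.2% rose and 31.1% fell, and 56.4% rose with total counts. Of 6 macrophage markers 4 rose and none fell, with sums of 75.3 to 149 CPM in controls and 177 to 514 CPM with puberulic acid. Without puberulic acid replicate 1, or with total counts, all 6 rose. Of 6 fibroblast and pericyte markers 5 rose and none fell, with sums of 128 to 191 and 587 to 2187 CPM, and all 6 rose with total counts. Of 6 lymphocyte markers 3 were tested and 1 rose, which is near the share of all genes. Their sums were 2.87 to 4.91 and 2.60 to 5.14 CPM. The part of these cells in the levels of the 8 genes was not tested.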
